A study of Mus musculus with 56 samples.

Results

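The genes described here encode the signalling parts of the T-cell receptor complex and the first proteins that act on it: Cd3e, Cd3d, Cd3g, Cd247, Cd4, Cd28, Lck, Zap70 and Lat. They were picked by name from the gene symbols of the deposited count tables, which hold 24633 distinct symbols in all, and all 9 are present and passed the filter on low counts in both tables. The study sequenced the 3′ ends of polyA RNA from mouse CD4 T cells, and its title places it among studies of how a culture's collective state acts on early CD4 T cell memory. The 56 libraries in 19 groups come as 2 tables, called experiment 1 and experiment 2 here, which were analysed separately. Levels are given as CPM, the counts of a gene for every 1000000 counts of its library, with library sizes adjusted by TMM (trimmed mean of M values).

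All cells came from spleens of C57BL/6 mice. Every activated group was cultured in complete RPMI with beads carrying antibodies to CD3 and CD28 and without added cytokines, so the stimulus acts on the products of the genes described here. Experiment 1 has 6 groups of 3 libraries. Its naive cells (CD4 positive, CD44 negative, CD62L positive) and mature cells (CD4 positive, CD44 positive, CD62L negative) were enriched with MACS, a magnetic method, and not activated. Its other groups are activated CD4 positive cells that were sorted as CD62L positive or CD62L negative at 48 or 72 h, from cultures started at 250000 cells per ml. CD62L is a homing receptor carried by naive and central memory T cells. Experiment 2 has 13 groups, with 3 libraries each except 2 at 72 h and low concentration. It holds sorted naive cells with the same markers as in experiment 1, and activated CD4 positive cells from cultures taken at 18, 30, 48 or 72 h, which began at 1000000 (high concentration) or 62500 (low concentration) cells per ml. Activated CD44 positive cells were also sorted into CD62L positive and CD62L negative fractions at 48 or 72 h, started at 250000 cells per ml. All cultures were started from naive CD4 T cells, in small volumes of 96-well plates for experiment 1 and in larger ones of 24-well plates for the concentration series. Animals' ages and whether replicate libraries came from separate mice or cultures are unstated, and a p-value here reflects only how much these libraries spread. The gate on CD44 and CD62L was applied to the naive cells and not to the high and low concentration cultures.

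The T-cell receptor binds a peptide held by an MHC molecule, but its own chains have almost no part inside the cell. The signal passes through the CD3 epsilon, delta and gamma chains (Cd3e, Cd3d, Cd3g) and the zeta chain (Cd247), whose tails carry tyrosine motifs. Lck, a kinase held by the coreceptor CD4, phosphorylates these motifs, the kinase ZAP-70 (Zap70) docks on them, and ZAP-70 then phosphorylates the membrane scaffold LAT, from which the calcium, protein kinase C and Ras branches start. CD28 is the costimulatory receptor that naive T cells need beside the receptor signal.

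Of the 9 genes, 7 have a promoter entry in the RefSeq table at hand (build GRCm38.p6), and 5 of these are shown as the 250 bases before the annotated start. The CD3 and zeta chains are shown because their levels fell together and then differed in their return, and Zap70 because it moved the other way at 18 h. Each reads 5′ to 3′ on the gene's own strand. Capitals mark matches, on either strand, to short cores searched for: AGGAAG (Ets factors), TGTGGT (Runx factors), CAGNTG (E proteins) and TGGAAA (NFAT). No matches of different cores overlap within these windows.
Cd3e promoter, chr9:45009612-45009861, minus strand: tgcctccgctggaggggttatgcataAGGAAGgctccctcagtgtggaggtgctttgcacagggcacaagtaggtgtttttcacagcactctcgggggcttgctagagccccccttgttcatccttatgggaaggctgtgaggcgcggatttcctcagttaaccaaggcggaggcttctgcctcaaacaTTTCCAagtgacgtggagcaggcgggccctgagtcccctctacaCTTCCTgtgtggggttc
Cd3d promoter, chr9:44981536-44981785, plus strand: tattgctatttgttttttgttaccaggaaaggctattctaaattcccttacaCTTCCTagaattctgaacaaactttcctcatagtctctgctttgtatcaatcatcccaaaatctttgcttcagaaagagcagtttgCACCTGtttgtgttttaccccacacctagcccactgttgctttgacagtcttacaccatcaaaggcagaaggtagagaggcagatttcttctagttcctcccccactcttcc
Cd3g promoter, chr9:44980432-44980681, minus strand: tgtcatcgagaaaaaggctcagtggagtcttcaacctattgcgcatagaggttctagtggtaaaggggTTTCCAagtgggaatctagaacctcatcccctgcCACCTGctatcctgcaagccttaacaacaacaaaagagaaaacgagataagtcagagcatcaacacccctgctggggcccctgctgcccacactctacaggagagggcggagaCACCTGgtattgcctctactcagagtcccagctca
Cd247 promoter, chr1:165788431-165788680, plus strand: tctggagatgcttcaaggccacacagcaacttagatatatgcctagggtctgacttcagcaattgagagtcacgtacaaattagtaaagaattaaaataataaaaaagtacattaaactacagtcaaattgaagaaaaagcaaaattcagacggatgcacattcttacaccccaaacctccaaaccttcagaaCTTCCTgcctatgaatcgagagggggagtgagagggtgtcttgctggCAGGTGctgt
Zap70 promoter, chr1:36761548-36761797, plus strand: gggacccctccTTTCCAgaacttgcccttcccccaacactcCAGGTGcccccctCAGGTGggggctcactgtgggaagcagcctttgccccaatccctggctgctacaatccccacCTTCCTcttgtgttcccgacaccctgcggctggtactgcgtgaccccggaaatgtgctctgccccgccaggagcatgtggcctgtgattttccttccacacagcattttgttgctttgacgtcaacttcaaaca

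Cd3g and Cd3d lie head to head on chromosome 9, with 854 bases between the windows shown. The Ets core is found before a start of 6 of the 7 genes, at 17 and 224 bases before that of Cd3e, and not in the Cd3g window, against 29.5% of all 32851 promoter windows of the same length. The E protein core is found for 6 of 7 (44.8% of all windows), the NFAT core for Cd3e, Cd3g and Zap70 (18.6%) and the Runx core for Lck and for the second of the 3 annotated Zap70 starts (14%), which is not printed. A gene was counted if any of its annotated starts had a match, and the 7 genes have 10 windows, while the percentages are per single window. The E protein match of Lck is before its second start only. The matches describe letters in these windows. Counts at 3′ ends do not tell which start was used.

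Library totals were 58750 to 1738555 counts in experiment 1, where the first naive library is the lowest, and 587118 to 3359875 in experiment 2. Cd4 was present in every library, at 282 to 1108 CPM in experiment 2, and the summed levels of 6 B-cell markers and 4 NK-cell markers were at most 15.1 and 13.8 CPM there. Those of 6 myeloid markers reached 32.8 CPM. Of the CD8 T-cell markers, Cd8a was at 0 in 33 of the 38 libraries of experiment 2 and Cd8b1 was at 13.1 to 96.2 CPM. The unactivated libraries of experiment 1 carried more RNA of B-cell, myeloid and NK-cell markers, which is given beside their comparison. The protocol in the labels pools equal amounts of cDNA by an actin measurement, so fewer cells carrying a transcript and less of it per cell cannot be told apart, and values are relative to the total RNA sampled. Exons of other annotated genes overlap those of Cd3e (the antisense Gm48719) and Cd247 (Gm16565 and, on the other strand, Pou2f1). Those of Lck and Lat overlap microRNA genes on the same strand (Mir8119 and Mir7058). The authors' strand setting is not known from the sources used here, so reads of these overlaps cannot be told apart. All tests below are edgeR quasi-likelihood tests on the counts, fitted over all genes of an experiment, and a gene is called where the Benjamini-Hochberg adjusted p is under 0.05. Differences are on the log2 scale, where 1 unit is a doubling, with their standard error (SE).

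At 18 h of activation most of the receptor apparatus was at a lower level than in naive cells: 7 of the 9 genes fell and 1, Zap70, rose, where 33.6% of all genes tested were called lower and 32.3% higher. Cd3d, the CD3 delta chain, was at 1086, 1902 and 1596 CPM in the naive libraries, at 486, 536 and 469 CPM at high concentration and at 478, 524 and 510.0 CPM at low concentration. Every 18 h library was below every naive one, and the mean over both concentrations fell 3.05-fold (log2 difference -1.61, SE 0.12, adjusted p = 1.11e-16 in edgeR). Cd3g, the gamma chain, fell from 183, 257 and 221 CPM to 93.2, 116 and 121 CPM at high and 87.6, 70.3 and 71.3 CPM at low concentration (2.39-fold, log2 difference -1.25, SE 0.15). Cd3e, the epsilon chain that pairs with both others, fell 1.93-fold (-0.95, SE 0.21, adjusted p = 0.000176 in edgeR) from 218, 175 and 147 CPM. The zeta chain gene Cd247 fell 1.76-fold (-0.82, SE 0.12) from 468, 432 and 531 CPM. No 18 h library of these chains overlapped the naive ones.

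The coreceptor, its kinase and the scaffold fell too. Lat was at 1873, 1777 and 1845 CPM in naive cells, at 606, 656 and 657 CPM at 18 h and high concentration and at 846, 849 and 809.6 CPM at low concentration. Its fall of 2.51-fold (log2 difference -1.33, SE 0.10) had the smallest adjusted p of the 9 genes, 4.62e-17 in edgeR. Lck went from 1436, 1273 and 1399 CPM to 429, 474 and 473 CPM at high and 601, 560.2 and 590.3 CPM at low concentration, 2.64-fold lower (log2 difference -1.40, SE 0.11). Cd4 was at 1108, 975 and 929 CPM in naive cells and fell 2.11-fold (-1.08, SE 0.12, adjusted p = 3.05e-11 in edgeR). For all 3 genes every 18 h library lay below the naive libraries. The summed level of the CD8 markers was 47.3 to 96.2 CPM at 18 h and 33.9 to 37.2 CPM in naive cells, nearly all of it Cd8b1, and its part in these falls was not tested.

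Zap70 was the exception. Its naive level was 372, 485 and 388 CPM, against 655, 735 and 665 CPM at 18 h and low concentration and 533, 531 and 453 CPM at high concentration. The low concentration libraries were all above the naive ones, while 1 high concentration library was below the highest naive one. The rise of the mean was 1.42-fold (log2 difference 0.50, SE 0.16, adjusted p = 0.00679 in edgeR). Cd28 was counted 4 to 69 times per library of experiment 2, and its naive level of 13.1, 41.7 and 21.8 CPM overlapped the 18 h levels of 64.3, 45.5 and 33.0 CPM at high and 37.2, 47.3 and 41.0 CPM at low concentration. Its difference of 0.78 (95% interval -0.17 to 1.74) was not called, with an adjusted p of 0.14 in edgeR. None of the alternatives run ended any of the 8 calls. Cd28 passed as higher without the second naive library, in a fit of the compared groups alone and without the filter on low counts.

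**Figure D1:**
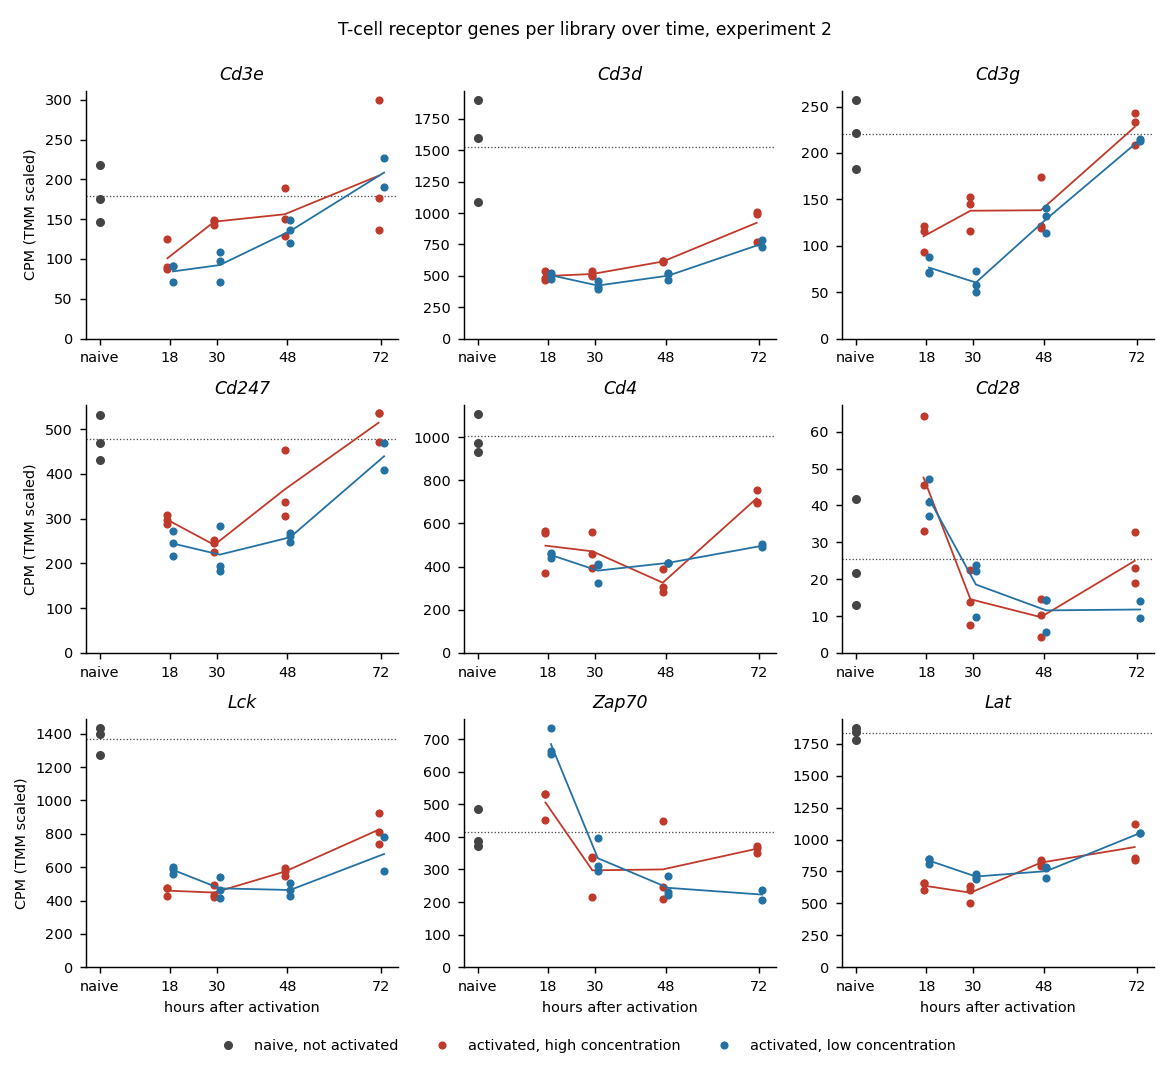
CPM of each gene (y axis, from 0, a scale of its own per panel) in every library of naive cells and of the high and low concentration cultures against hours after activation. Points are libraries, lines join group means and the dotted line is the naive mean. Cd3d, Lck and Lat stay below every naive library at every time, Cd3g first reaches the naive range at 72 h, single libraries of Cd3e and Cd247 do so from 30 and 48 h on, and Zap70 is highest at 18 h.

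Other genes of the pathway were taken from 4 lists of named genes. Of 22 proximal kinases and adaptors, all tested, 15 fell and 1 rose at 18 h, and the median log2 difference of the list was -1.01 beside 0 for all genes tested. Fyb, the adaptor ADAP that links the receptor to integrins, fell by 2.78 on the log2 scale and its partner Skap1 fell by 2.19. Of 24 negative regulators 8 were higher and 8 lower (median -0.29), shares near those of all genes (32.3% higher and 33.6% lower). Dgka, a kinase that removes the lipid diacylglycerol, went from a mean of 1645 CPM in naive cells to 186 CPM (log2 difference -3.14, SE 0.12), and the adaptor gene Sit1 fell by 2.87. Of 22 tested genes of the calcium, protein kinase C and Ras branches, 9 fell and 4 rose, with Prkcq (protein kinase C theta) at -1.75 and Rasgrp1, which loads Ras in T cells, at -1.72. Of 7 symbols for receptor chain constant regions and the pre-receptor chain, only Ptcra was matched and it did not pass the filter, so the antigen-binding chains are not analysed here.

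Between 18 and 30 h the means over both concentrations were compared (a comparison added after seeing the data, as were the next ones of neighbouring times). Zap70 fell 1.86-fold (log2 difference -0.90, SE 0.13, adjusted p = 8.22e-07 in edgeR), to 217, 336 and 339.7 CPM at high and 396, 297 and 311 CPM at low concentration, with no overlap with 18 h. Cd28 fell 2.66-fold (-1.41, SE 0.38), to 13.7, 7.56 and 22.4 CPM at high and 9.61, 22.1 and 23.9 CPM at low concentration. The other 7 genes were not called, and 10.6% of all genes fell. The titles of experiment 2 carry a second number, which the labels do not explain, and it is 1 in all 18 h and 2 in all 30 h libraries. With this number as a term in the fit, Zap70 fell by 1.13 and Cd28 was not called (adjusted p = 0.263 in edgeR). No compared group holds both numbers, so the term was estimated from other groups that do. These are low concentration and CD62L negative cells at 48 h and both CD62L sorts at 72 h. The fit thus cannot separate the number from the change between 18 and 30 h.

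From 30 to 48 h the mean over both concentrations rose 1.46-fold for Cd3g (log2 difference 0.55, SE 0.12), 1.33-fold for Cd247 and 1.22-fold for Lat. Their adjusted p was 0.000535, 0.00136 and 0.00682 in edgeR. These 3 of 9 stood against 14.9% of all genes called higher, and Lat was not called without the filter on low counts (adjusted p = 0.0532 in edgeR). The concentrations differed in these rises. The mean of Cd3g was 137.7 CPM at 30 h and 138.2 CPM at 48 h at high concentration, and 60.3 and 128.7 CPM at low. Cd247 went from 241 to 365 CPM at high and from 220 to 258 CPM at low concentration. Lat went from 583 to 819 CPM and from 710 to 752 CPM. The rise within each concentration was not tested. From 48 to 72 h, 7 of 9 rose against 16.6% of all genes. The rises were 0.73 for Cd3g, 0.69 for Cd4, 0.63 for Cd247, 0.59 for Cd3d, 0.54 for Lck, 0.50 for Cd3e and 0.34 for Lat. The SE of these differences was 0.09 to 0.18. The Cd3e rise was not called when any of 5 libraries was left out (the first or the third at 48 h and high concentration, the second at 48 h and low, or the second at 72 h in either), with an adjusted p of up to 0.164 in edgeR. Zap70 (0.08, 95% interval -0.21 to 0.37) and Cd28 (0.65, -0.31 to 1.61) were not called between 48 and 72 h.

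Within each concentration, 72 h was also set against 18 h. At high concentration 7 of 9 rose and Zap70 fell, where 28.9% of all genes rose and 24% fell. The rises ran from 0.53 (SE 0.14) for Cd4 to 1.05 (SE 0.18) for Cd3g on the log2 scale. The fall of Zap70 (-0.48, adjusted p = 0.0306 in edgeR) was lost in DESeq2 and without any 1 of 5 libraries (the first or second at 18 h, or any at 72 h), with an adjusted p of up to 0.084. At low concentration 5 rose and 2 fell, where 24.7% of all genes rose and 20.7% fell. Cd3g rose by 1.47 (SE 0.20) and Cd3e by 1.31 (SE 0.28), while Zap70 fell 3.07-fold (-1.62, SE 0.22, adjusted p = 5.59e-08 in edgeR) to 238 and 208 CPM. Cd3d rose by 0.59 and Lat by 0.33, and Cd28 fell by 1.81. The CD8 markers summed to less at 72 h (31.8 to 37.9 CPM at high, 14.2 to 15.6 CPM at low concentration) than at 18 h, and their part was not tested.

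The number in the titles differs between the 18 h and 72 h libraries at low concentration, and with it as a term Cd3d (log2 difference 0.33, adjusted p = 0.155 in edgeR) and Cd28 (-1.54, adjusted p = 0.156) were not called there. The term was again estimated from other groups. Leaving out any 1 of the 5 libraries of that comparison ended the call of Lat, as did testing without the filter on low counts, and leaving out the second at 18 h or either at 72 h ended that of Cd28, with adjusted p of up to 0.141 and 0.171 in edgeR.

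At 72 h the genes differed in how far they had come back to the naive level. Both concentrations were set against the same 3 naive libraries, so the values are given side by side. The receptor chains Cd3e, Cd3g and Cd247 were not called in either: their differences at high concentration were 0.19 (95% interval -0.30 to 0.68), 0.05 (-0.30 to 0.40) and 0.11 (-0.18 to 0.40). At low concentration they were 0.22 (-0.32 to 0.76), -0.04 (-0.43 to 0.34) and -0.12 (-0.45 to 0.21). Their libraries overlapped the naive ones: Cd3g was at 208, 243 and 233 CPM at high and 213 and 215 CPM at low concentration. Cd3e spread widely between libraries, at 137, 300.3 and 177 CPM at high concentration.

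Cd3d, Cd4, Lck and Lat were still lower, with every 72 h library below every naive one. At high concentration these were the 4 genes called, where 20% of all genes were lower, and at low concentration Zap70 made 5, where 24.1% were lower. Cd3d was at 1005, 768 and 993 CPM at high and 729 and 783 CPM at low concentration, 1.66-fold and 2.02-fold below naive (log2 differences -0.73, SE 0.15, and -1.02, SE 0.17). Cd3g and Cd3d, whose promoters face each other, thus stood at different distances from naive, a contrast between 2 genes that was not tested itself. Lat was at 857, 1121 and 843 CPM at high and 1048 and 1054 CPM at low concentration (log2 differences -0.96, SE 0.12, and -0.80, SE 0.13). Lck was at 738, 808 and 927 CPM and 778 and 579.9 CPM (-0.73, SE 0.14, and -1.01, SE 0.16). Cd4 was at 699, 693 and 756 CPM and 489.7 and 503 CPM (-0.49, SE 0.14, and -1.02, SE 0.16).

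Zap70 was called lower than naive at low concentration (-0.90, SE 0.22, adjusted p = 0.000577 in edgeR) and not at high concentration (-0.19, 95% interval -0.58 to 0.20). Scaled by library totals alone, Cd4 at high concentration was not called (log2 difference -0.26, adjusted p = 0.139 in edgeR), a setting that moves the median of all genes by 0.23. The shares of all genes called higher were 23.5% at high and 26.2% at low concentration, beside those called lower above. Of 22 proximal kinases and adaptors, 4 were lower and 3 higher at high concentration, a share near that of all genes called lower, and 10 lower and 2 higher at low concentration. Of 24 negative regulators 5 were lower and 4 higher at high, and 11 lower and 6 higher at low concentration. For the calcium, protein kinase C and Ras branches 5 were lower and 4 higher at high, and 11 lower and 1 higher at low concentration. The medians of the lists, in this order, were -0.08, -0.13 and -0.22 at high and -0.51, -0.56 and -0.57 at low concentration, beside 0.00 for all genes.

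**Figure D2:**
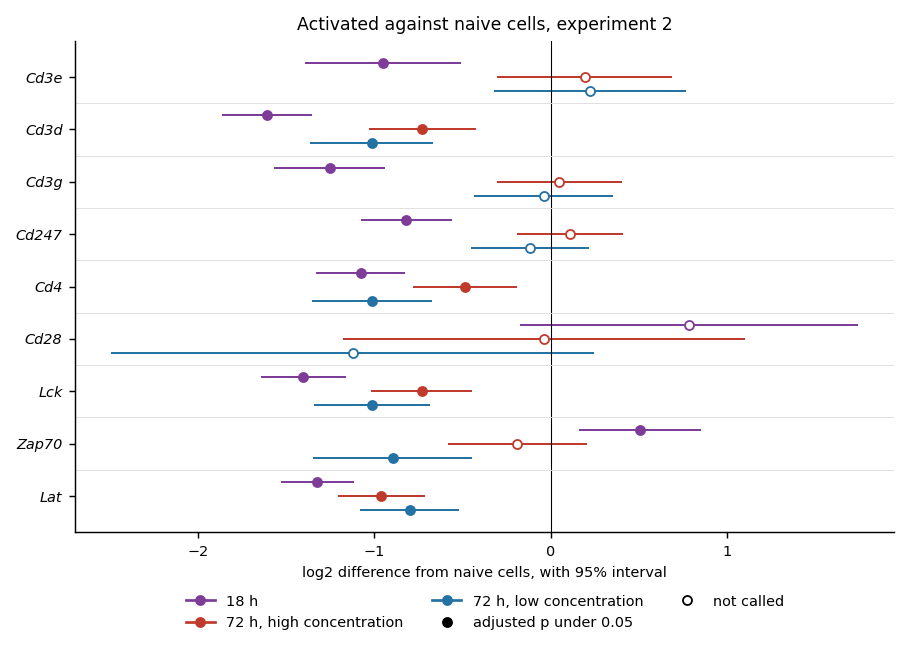
Log2 difference from naive cells (x axis) with its 95% interval for each gene at 18 h (mean of both concentrations) and at 72 h at high and low concentration. Filled points are called. At 72 h the intervals of Cd3e, Cd3g and Cd247 hold 0 at both concentrations, and those of Cd3d, Cd4, Lck and Lat lie below 0.

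The starting concentration of the culture was compared at each time. At 18 h none of the 9 genes was called by edgeR, where 1.87% of all genes were called in either direction, while 4 had an unadjusted p under 0.05 and DESeq2 called 1, Lat. Lck, Zap70 and Lat had lower means and Cd3g and Cd247 higher ones at high concentration, with intervals of -0.64 to -0.06, -0.82 to -0.05, -0.63 to -0.14, 0.11 to 0.91 and -0.03 to 0.58. In a fit of the 18 h groups alone Lck, Zap70, Lat and Cd3g were called, so the outcome at 18 h depends on which groups share the estimate of the spread. The CD8 markers summed to 68.0 to 96.2 CPM at high and 47.3 to 62.8 CPM at low concentration, and their part was not tested.

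At 30 h Cd3g was called higher at high concentration, the 1 gene of 9 against 4.63% of all genes. It was at 152, 116 and 145 CPM at high and 57.7, 50.3 and 73.1 CPM at low concentration, 2.26-fold apart with no overlap (log2 difference 1.18, SE 0.18, adjusted p = 6.1e-06 in edgeR). No alternative ended this call. Cd3e was at 148, 143 and 149 CPM and 70.9, 97.8 and 109 CPM, also without overlap, but its difference of 0.66 (SE 0.24) missed the threshold at an adjusted p of 0.0819 in edgeR. It was called with the replicate number as a block (adjusted p = 0.0482), in the 30 h groups alone and without the filter on low counts. At 48 h Cd3g was not called (0.10, 95% interval -0.25 to 0.46). The CD8 markers summed to 37.5 to 63.5 CPM at high and 30.0 to 35.4 CPM at low concentration at 30 h, and their part was not tested.

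At 48 h Cd247 was called, the 1 gene of 9 against 13.9% of all genes higher. Its libraries were at 453, 307 and 337 CPM at high and 248, 268 and 260.3 CPM at low concentration (log2 difference 0.50, SE 0.14, adjusted p = 0.00738 in edgeR). The first high concentration library was the highest of the 6, and without it, as in the 48 h groups alone, no gene was called (log2 difference down to 0.31, adjusted p of up to 0.146 for Cd247). Without the third, 2 were called, since Cd4 then passed as lower (adjusted p = 0.0116). At 72 h Cd4 and Zap70 were higher at high concentration, 2 of 9 against 13%. Zap70 was at 352, 373 and 366 CPM against 238 and 208 CPM, 1.63-fold higher (0.71, SE 0.22, adjusted p = 0.0126 in edgeR). Cd4 was at 699, 693 and 756 CPM against 489.7 and 503 CPM, 1.44-fold higher (0.53, SE 0.16, adjusted p = 0.0111). The low concentration group has 2 libraries. Without the first, only Zap70 was called, and without the second, neither, with adjusted p of up to 0.105 for Cd4 and 0.142 for Zap70 in edgeR.

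At 72 h the second number of the titles is 1 in all high and 2 in all low concentration libraries. With it as a term, the differences were 0.62 for Cd4, 0.94 for Zap70 and 0.54 for Cd3d, all called (adjusted p = 0.0164, 0.00796 and 0.0336 in edgeR), where Cd3d had a difference of 0.29 without it. Here too the term was estimated from other groups, so it cannot separate the number from the concentration at 72 h. The CD8 markers summed to 31.8 to 37.9 CPM at high and 14.2 to 15.6 CPM at low concentration at 72 h, and to 21.9 to 32.3 and 13.2 to 22.4 CPM at 48 h, and their part was not tested. The 48 h comparison of Cd247 gave 0.53 with that term (adjusted p = 0.014).

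The difference between concentrations itself changed with time for 3 genes. Against 18 h, it moved toward high concentration at 48 h for Lck and Lat, 2 of 9 against 6.32% of all genes, and at 72 h for Lck and Zap70, 2 of 9 against 7.1%. For Zap70 the change was 1.14 (SE 0.29, adjusted p = 0.00366 in edgeR), from -0.44 at 18 h to 0.71 at 72 h, and none of the alternatives run ended it. For Lck it was 0.65 (SE 0.20, adjusted p = 0.0175) at 48 h and 0.63 (SE 0.21, adjusted p = 0.031) at 72 h. For Lat it was 0.51 (SE 0.17, adjusted p = 0.0315) at 48 h. The changes to 48 and to 72 h are both taken from the same 18 h libraries, so they are not independent. For Lck the difference at 18 h was -0.35, itself not called. At 48 h Lck was lost without the second low concentration library at 48 h, and Lat without the first at 18 h in either concentration, the second at 18 h and low, or the first at 48 h in either. Without the third high concentration library at 48 h, 4 genes were called. Scaled by library totals, Lat at 48 h and Lck at 72 h were not called, and without the filter on low counts none of these Lck and Lat calls held, while Zap70 was called at both times. At 72 h Lck was lost without the first library at 18 h in either concentration, the third at 18 h and low, the third at 72 h and high or the second at 72 h and low. Lck at 72 h was also lost with the second title number as a term (0.61, adjusted p = 0.0708 in edgeR).

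**Figure D3:**
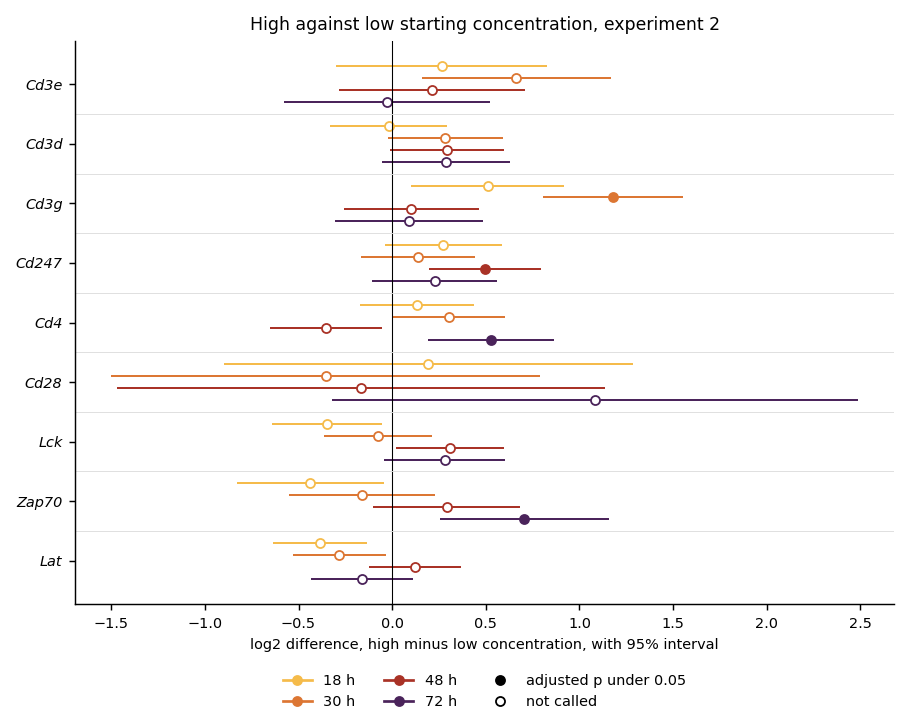
Log2 difference between high and low starting concentration (x axis, positive where high is higher) with its 95% interval at 18, 30, 48 and 72 h. Filled points are called: Cd3g at 30 h, Cd247 at 48 h, and Cd4 and Zap70 at 72 h. The points of Zap70 run from -0.44 at 18 h to 0.71 at 72 h.

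The pathway lists were counted in the same comparison, where 13.9% of all genes were higher and 12% lower at 48 h. At 48 h, 6 of 22 proximal kinases and adaptors were called, all of them higher (median 0.42 beside 0.04 for all genes), and 6 of 22 genes of the calcium, protein kinase C and Ras branches were called, also all higher (median 0.28). Cd2, an adhesion receptor that aids T-cell receptor signalling, had a mean of 820.2 CPM at high and 246 CPM at low concentration (log2 difference 1.74, SE 0.13). The kinase gene Tec was 2.58 higher from a low level, with means of 11.9 and 2.00 CPM. Rasgrp1 and Mapk3, which encodes the kinase ERK1, were higher by 1.11 and 1.27. Of 24 negative regulators 2 were higher and 3 lower, among the latter Pdcd1 (the PD-1 receptor, -2.15) and Ubash3b (a phosphatase that acts on ZAP-70, -1.13). At 72 h, where 13% of all genes were higher and 13.5% lower, 6 of 22 proximal kinases and adaptors were higher and 1 lower, and 9 of 24 negative regulators were higher and 5 lower.

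In the sorted cells of experiment 2, Cd247 and Lat were higher in CD62L positive than in CD62L negative cells at 48 h, 2 of 9 against 7.23% of all genes. Lat was at 1060.5, 1059 and 1009 CPM in positive and 723, 834 and 766 CPM in negative cells (log2 difference 0.43, SE 0.12, adjusted p = 0.00833 in edgeR). Cd247 was at 349, 392 and 400.3 CPM and 257, 283 and 307 CPM (0.43, SE 0.14, adjusted p = 0.0334). Neither gene's groups overlapped. In the 48 h groups alone neither was called, and Cd247 was lost without the first or second negative library or the second or the third positive one. Positive libraries have 1 as the second title number and 2 of the 3 negative ones have 2. With it as a term Lat stayed called (0.39, adjusted p = 0.0443 in edgeR) and Cd247 did not (0.40, adjusted p = 0.114). Markers of B cells summed to 13.5 to 14.9 CPM in positive and 5.17 to 10.6 CPM in negative libraries, and those of CD8 T cells to 24.5 to 34.8 and 15.0 to 25.2 CPM, and their part was not tested.

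At 72 h in experiment 2 no gene of the 9 was called by edgeR or DESeq2, where 1.53% of all genes were called in either direction. Cd3g, Cd247 and Cd4 had an unadjusted p under 0.05. Cd4 was at 617, 571 and 571 CPM in positive and 439, 471 and 453 CPM in negative cells (95% interval 0.07 to 0.66), and Cd3g had a lower mean in positive cells (-0.72 to -0.02). The CD8 markers summed to 25.3 to 29.4 CPM in positive and 13.1 to 20.3 CPM in negative libraries. Myeloid markers summed to 9.57 to 32.8 and 3.28 to 9.71 CPM, and B-cell markers to 6.16 to 9.22 and 1.62 to 12.3 CPM. The part of these cells was not tested. The change of the difference from 48 to 72 h was called for 0 of 9 genes by edgeR and by DESeq2, with 2 at an unadjusted p under 0.05 (Cd4 and Lat), against 1.3% of all genes. Of the pathway lists, only Txk, a tyrosine kinase gene, was called at 72 h (log2 difference 0.89, adjusted p = 0.0152 in edgeR). It was lost without the first negative or the second or the third positive library (adjusted p of up to 0.15).

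Experiment 1 gave a different count at 72 h: Cd3e, Cd3d, Cd3g, Cd247 and Cd4 were higher in CD62L positive than in negative cells, 5 of 9 against 10.1% of all genes. The sorts did not overlap for these 5, nor for Lck, which was not called. The share of all genes without overlap was not counted. Cd3d was at 326, 316 and 429 CPM in positive and 173, 177 and 220.1 CPM in negative cells, 1.87-fold higher (log2 difference 0.90, SE 0.14, adjusted p = 1.97e-05 in edgeR). Cd3e was at 577, 558 and 596 CPM against 391, 342 and 409 CPM (0.60, SE 0.15). Cd247 (0.49, SE 0.12), Cd4 (0.55, SE 0.18) and Cd3g (0.46, SE 0.16) were 1.37 to 1.46 times as high in positive cells. The kinases and the scaffold were not called, with intervals of -0.53 to 0.07 for Lck, -0.20 to 0.41 for Zap70 and -0.05 to 0.56 for Lat. The difference between the experiments was not tested, since the tables were made separately and their sorts differ in CD44.

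With the replicate number as a block in the compared groups alone, the 5 calls of that comparison held (0.47 to 0.92). Lat was called too (0.28, adjusted p = 0.0304 in edgeR). Only the third number stood out as a pair there, so whether the numbers pair the samples is uncertain. Cd3d and Cd247 held with any library left out. Cd3e was lost without the second negative library (adjusted p = 0.0606). Cd3g was lost with library totals alone, and Cd3g and Cd4 were both lost without the first or second negative library or any 1 of the 3 positive ones. The count of calls was then 3, 2, 3, 3 and 3 in that order. Of the 21 tested proximal kinases and adaptors 10 were higher and 1 lower, where 9.35% of all genes were lower (median 0.45 beside a median near 0 for all genes). Markers of other cells were also higher in the CD62L positive libraries, at 31.8 to 53.6 against 13.1 to 17.1 CPM for the CD8 markers, 48.4 to 66.9 against 11.5 to 30.8 CPM for the myeloid ones and 14.0 to 17.2 against 9.58 to 13.3 CPM for the B-cell ones. The NK-cell markers were at most 2.55 CPM, and the part of these cells in the differences was not tested.

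At 48 h in experiment 1, none of the 9 genes was called by edgeR or DESeq2, where 6.51% of all genes were called, and 1, Lat, had an unadjusted p under 0.05 (0.36, 95% interval 0.05 to 0.66). The difference grew from 48 to 72 h for Cd3d (0.86, SE 0.21, adjusted p = 0.0281 in edgeR), the 1 gene of 9 against 0.591% of all genes. Cd3d was at 132, 117 and 121 CPM in positive and 103, 123 and 134 CPM in negative cells at 48 h. This call was lost without any 1 of 8 libraries: the second or the third of either sort at 48 h, the first or second negative, or the first or the third positive at 72 h (adjusted p of up to 0.114).

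**Figure D4:**
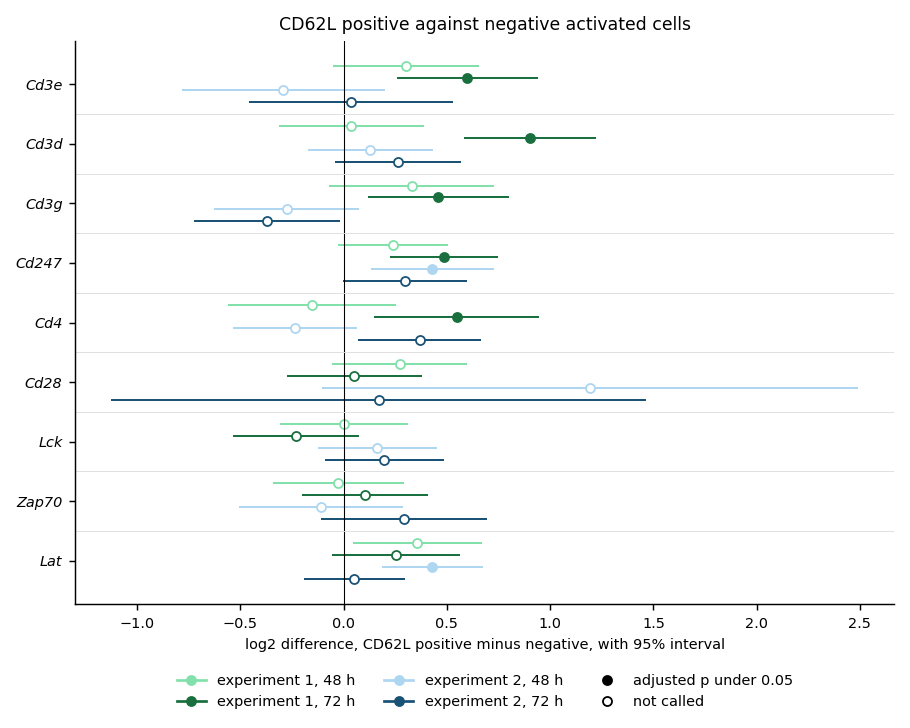
Log2 difference between CD62L positive and negative activated cells (x axis, positive where CD62L positive cells are higher) with its 95% interval, for both experiments at 48 and 72 h. Filled points are called. The CD3 chains, Cd247 and Cd4 are called at 72 h in experiment 1, and Cd247 and Lat at 48 h in experiment 2.

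CD62L positive cells at 72 h were also set against naive cells of the same experiment. In experiment 2, Cd3d (-0.85), Cd4 (-0.78), Lck (-0.94), Zap70 (-0.64) and Lat (-0.64) were lower, 5 of 9 against 23.3% of all genes. SEs were 0.12 to 0.19, and no CD62L positive library of these 5 genes reached the naive range. Scaled by library totals, Zap70 was not called (adjusted p = 0.17 in edgeR), where the median of all genes was 0.34, against 0.01 with TMM. In experiment 1, Cd28 and Cd3e were higher and Lck lower, 3 of 9 against 37.2% in either direction. Lck was at 967, 1165 and 1208 CPM against 1521, 1812 and 1853 CPM in naive cells (-0.66, SE 0.15, adjusted p = 0.000499 in edgeR). Cd28 was higher by 1.02 (SE 0.20) and Cd3e by 0.54 (SE 0.18), the latter lost without the second or the third naive library or in the compared groups alone (adjusted p of up to 0.332). Markers of other cells in these naive libraries are given with the next comparison.

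Mature cells, the unactivated CD44 positive population, were compared with naive cells in experiment 1. Cd28 and Cd3e were higher, 2 of 9 against 7.82% of all genes. Cd28 was at 502, 506 and 501 CPM in mature and 139.7, 182 and 180.3 CPM in naive cells, 2.87-fold higher with no overlap (log2 difference 1.52, SE 0.20, adjusted p = 8.4e-07 in edgeR). The naive libraries hold 9 to 58 counts of it. No alternative ended this call. Cd3e was at 592, 603 and 599 CPM against 621, 284 and 404 CPM (0.59, SE 0.18, adjusted p = 0.0238). Its groups overlapped, and it was lost without the second naive library, when only Cd28 was called, or the third, when Cd4 was called too (adjusted p of up to 0.266 for Cd3e and 0.0257 for Cd4). Lck, Zap70 and Lat had higher means in mature cells but were not called, with intervals of -0.11 to 0.51, 0.00 to 0.75 and -0.04 to 0.61. Cd3d had a lower mean in mature cells (-0.73 to 0.07), also not called.

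Markers of B cells, myeloid cells and NK cells were at higher levels in these 2 groups than in activated cells. The summed level of 6 B-cell markers was 1087 to 1722 CPM in naive and 667 to 716 CPM in mature libraries against 5.33 to 17.2 CPM in the activated ones, with Pax5 at 0 in every library. The 6 myeloid markers summed to 590 to 1345 CPM in naive, 290 to 294 CPM in mature and 11.5 to 66.9 CPM in activated libraries. The 4 NK-cell markers summed to 31.0 to 93.3 CPM in naive, 144 to 165 CPM in mature and at most 2.55 CPM in activated libraries. The CD8 markers summed to 77.6 to 250.4 CPM in naive, 32.7 to 42.4 CPM in mature and 11.5 to 53.6 CPM in activated ones. Those of red cells and platelets summed to 162 to 435 CPM, 26.9 to 40.8 CPM and 7.52 to 51.5 CPM in the same order. For both of these lists mature cells were within the activated range. Their part in the differences from naive cells was not tested. In this comparison 8.59% of all genes were called lower. Of the pathway lists, 6 of 21 tested proximal kinases and adaptors were higher and 2 lower, with Fyb at 1.14 and Pik3cd, a lipid kinase subunit, at -1.35. Of 23 negative regulators 8 were higher and 3 lower, with the phosphatase gene Ptpn22 at 1.39 and the adaptor gene Sla at 1.23. Of 23 genes of the calcium, protein kinase C and Ras branches 6 were higher and 2 lower, with Malt1 at 1.44 and Rasgrp1 at 1.16. The medians of these lists were 0.23, 0.44 and 0.54 beside 0.04 for all genes.

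**Figure D5:**
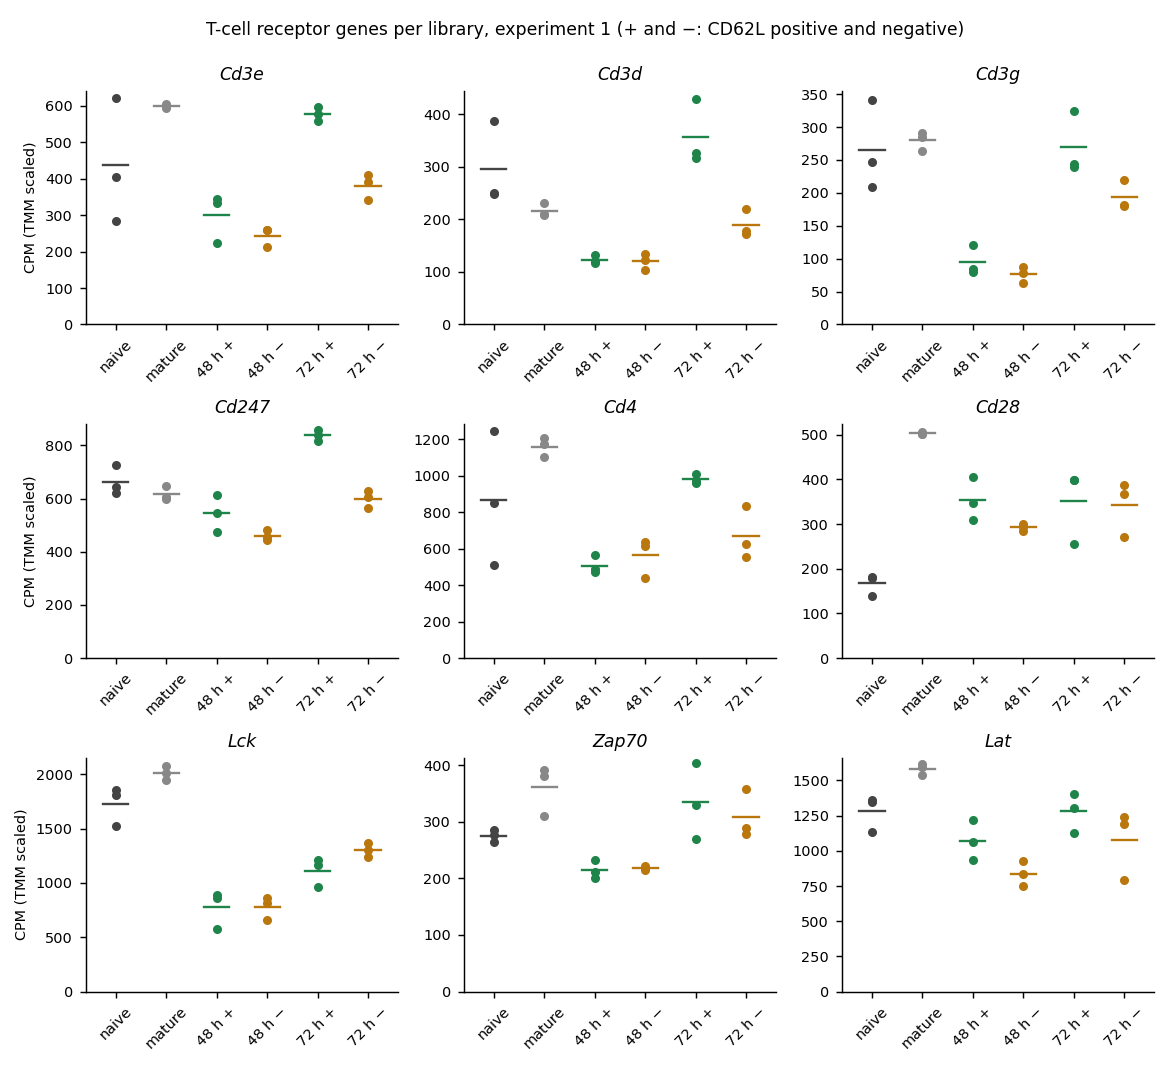
CPM (y axis, from 0, a scale of its own per panel) of each gene in every library of the 6 groups of experiment 1. Points are libraries and bars are group means. Cd28 is highest in the 3 mature libraries and lowest in the 3 naive ones, and Cd3d at 72 h is higher in all CD62L positive than in all CD62L negative libraries.

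Across the 13 groups of experiment 2, the order of mean levels was led by naive cells for Cd3d, Cd4, Lck and Lat, by CD62L positive cells at 72 h for Cd3e and Cd247, by CD62L negative cells at 72 h for Cd3g, and by 18 h for Zap70 (low concentration) and Cd28 (high). The highest mean was 2.48 (Cd3e) to 5.66 times (Cd28) the lowest. Most neighbours in these orders overlapped: of 12 neighbouring pairs, none was apart for Cd3e and Cd28, 1 for Cd3g, Lck and Zap70, 2 for Cd247, 3 for Cd3d and Lat, and 4 for Cd4. Neighbours were taken after sorting the groups by mean, which favours overlap, and the same count was not made for all genes. These counts thus tell only how finely the orders can be read. In experiment 1 mature cells had the highest mean for 7 of 9 genes, all but Cd3d and Cd247, which were highest in CD62L positive cells at 72 h. The lowest group was a 48 h group for all but Cd28, which was lowest in naive cells. The tables were counted separately, and Cd28, at 1.15 to 64.3 CPM in experiment 2 and 140 to 506 CPM in experiment 1, cannot be compared between them.

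Mean log2 levels over those 13 groups were correlated as a description. The groups come from 1 table with a shared scaling and are no independent samples. Cd3d and Lck had the highest correlation of the 36 pairs (Pearson r 0.96), followed by Cd3e with Cd3g (0.95) and Lck with Lat (0.91). Zap70 went with Cd28 (0.86), which was at only 1.15 to 64.3 CPM there, and against Cd3e (-0.63) and Cd3g (-0.53). Over the 6 groups of experiment 1, by contrast, Zap70 had r of 0.94 with Cd3e, 0.91 with Cd3g and 0.35 with Cd28. All 8 negative pairs of experiment 2 included Zap70 or Cd28, and the 3 negative pairs of experiment 1 all included Cd28. Among 3999 genes with a mean log2 CPM of at least 5, those nearest in pattern were Rin3 for both Cd3e (0.97) and Cd3g (0.95), Ctsd and Nr3c1 for Cd3d (both 0.98), and Tspan32 and Rasgrp1 for Cd247 (both 0.97). For Cd4 they were Tcf7 (0.92) and Gramd1a (0.91), for Lck Hcst (0.98) and Hsdl1 (0.97), for Lat Sirt7 (0.96) and Arhgap9 (0.95), for Zap70 Pdcd2 (0.93) and Rbm26 (0.91), and for Cd28 Prkx (0.92) and Cd164 (0.91).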

How the data were processed

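The authors deposited 2 tables of counts per gene symbol, 1 per experiment, covering 18 and 38 libraries of polyA RNA. Per the labels' protocols, libraries were primed with polyT primers carrying molecular identifiers and amplified linearly, which gives counts from 3′ ends. The submitters' processing notes name the build mm9 and the tools STAR 2.5.2b, HISAT 0.1.5 and HTSeq 0.9.1, beside FastQC 0.11.7 and bcl2fastq 2.17.1.14. The collapse of identifiers, the strand setting and the annotation stand as not given in the sources used here.

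Counts were analysed as deposited, each table on its own, with edgeR 4.0.16 in R 4.3.3 (limma 3.58.1): genes with at least 10 counts by filterByExpr, TMM factors, and 1 quasi-likelihood fit over all groups of an experiment with robust dispersion. The standard error is the log2 difference divided by the root of F. The fit tested 8961 of 19791 genes in experiment 1 and 9239 of 24421 in experiment 2. Library totals of 58750 to 3359875 set the precision, and counts of the shallowest naive library are the least precise. Tested on simulated data, the fit recovered 41.8% of 2-fold and 81.6% of 4-fold changes for mature against naive cells (8552 genes) and 60.4% and 90.6% for high against low concentration at 48 h (8832 genes), with 3.2% and 4.61% of calls false.

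Groups follow the labels. The members, the gene lists, the rule for named genes and the comparisons were chosen with earlier results of these data known. Named genes are the 9 members, up to 2 genes per pathway list with the smallest adjusted p in each of 4 comparisons, and the 2 genes nearest each member in pattern. Tried as alternatives were DESeq2 1.42.0, its size factors in edgeR, library totals alone, no filter, the compared groups alone, the replicate number as a block, the second title number as a term, and each library left out. The 3 comparisons of neighbouring times and the use of the second title number were added after seeing the data. In experiment 1 at 72 h, deviations of CD62L positive and negative libraries of the same number correlated at r = 0.164, 0.176 and 0.398. The highest r with another number was 0.211, 0.199 and -0.253, so only the third number stood out. The main tests took no numbers as pairs, and the replicate block was an alternative only. For concentration at 48 h, r was 0.276 for the first and 0.231 for the third number, against at most -0.159 and 0.215 with another number. Replicates differed by more than counting noise (chi-square per degree of freedom 1.28 to 15.0), so none was counted as a duplicate. Promoters come from the RefSeq table of GRCm38.p6 and gene overlaps from the GENCODE annotation at hand, a build other than the authors'. No receptor chain constant region was matched among the deposited gene symbols, and Ptcra, the 1 matched symbol of that list, did not pass the filter.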

Additional observations from a re-analysis of the deposited data

Results flagged for a closer look

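The values below are differences of differences, each called by its own test in edgeR. In experiment 1, the CD62L difference of Cd3d grew from 48 to 72 h by 0.86 on the log2 scale. In experiment 2, the difference between high and low concentration moved from 18 to 48 h by 0.65 for Lck and by 0.51 for Lat, and from 18 to 72 h by 0.63 for Lck and by 1.14 for Zap70. The libraries on which each rests are named with its test.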

How the results depend on the processing

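Over 207 results (each of the 9 genes in each comparison), 3015 values under alternatives stayed on their side of the threshold in 2889 cases, where an uncalled value could change sign, lost a call in 83 and gained one in 43, and no called value reversed. Where the count of called genes among the 9 moved, the cause was not tested. With the compared groups alone it went from 2 to 0 for CD62L at 48 h in experiment 2, from 0 to 4 for concentration at 18 h, from 1 to 2 at 30 h and from 1 to 0 at 48 h. DESeq2 called 1 in place of 0 for concentration at 18 h. With library totals alone 1 in place of 2 was called for CD62L at 48 h in experiment 2 and for each change of the concentration difference from 18 h, to 48 and to 72 h. Without the low-count filter the same 3 counts went from 2 to 1, the CD62L change from 48 to 72 h in experiment 1 from 1 to 2, CD62L positive cells against naive there from 3 to 5, and concentration at 30 h from 1 to 2. The second title number as a term left 1 of 2 for 30 h against 18 h, for CD62L at 48 h in experiment 2 and for the concentration change to 72 h. With the replicate number as a block, concentration at 30 h gave 2 in place of 1 (Cd3e), although the numbers did not pair there, and no other count moved by over 1.5 times. In experiment 1 the block added Cd247 for CD62L positive cells against naive (adjusted p = 0.0483 in edgeR), where the numbers did not pair either. Leaving out single libraries gave counts of 1 to 2 for mature against naive, 2 to 5 for CD62L at 72 h and 0 to 1 for its change in experiment 1, and 1 to 2 for CD62L at 48 h in experiment 2. For concentration they were 0 to 2 at 48 h and at 72 h, 1 to 4 for the change to 48 h and 1 to 2 for that to 72 h.

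Over all genes, the number called moved by over 1.5 times for the CD62L change in experiment 1 (169, against 359 in DESeq2 and 279 without the filter), for concentration at 18 h (173 against 455) and 48 h (2397 against 1488) and CD62L at 72 h in experiment 2 (141 against 231, and 242 in DESeq2) in the compared groups alone, and with the second title number for concentration at 72 h (2447 against 1531), CD62L at 48 h in experiment 2 (1341 against 844) and 30 h against 18 h (2270 against 1117). Library totals alone changed the split of higher and lower calls from 909 and 838 to 736 and 1094 for CD62L at 72 h in experiment 1, from 428 and 363 to 341 and 451 for concentration at 30 h, and from 656 and 852 to 495 and 1141 for its change to 72 h. Against naive cells the split went from 2985 and 3102 to 3461 and 2593 at 18 h. At 72 h it went from 2175 and 1847 to 2830 and 1162 at high and from 2421 and 2227 to 3232 and 1427 at low concentration. For CD62L positive cells it went from 2279 and 2150 to 3324 and 1254 in experiment 2, and from 1707 and 1630 to 1630 and 1748 in experiment 1. For mature cells it went from 701 and 770 to 876 and 664. The depth of the first naive library of experiment 1 and the low counts of Cd28 limit what could be detected for them.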
